A study of Mus musculus with 5 samples.

Results

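The genes described here are 31 structural, metabolic and surface genes of radial glia and astrocytes, taken by name from the 23234 gene rows of an expression comparison in embryonic mouse cortex. All 31 were present under their own symbol. The cells were GFP-positive cells sorted from CD1 mouse cortices. They had received either a Ptf1a/GFP-misexpressing construct (3 samples) or a GFP-only control construct (2 samples) by electroporation at E12.5, with E counting days of embryonic age, and were collected at E15.5. Each sample pooled 3 to 6 brains. The samples carry the label of embryonic cortical pyramidal cells, but the sort selected on GFP alone. Neuron markers were abundant in both groups, at a summed 5288 FPKM with Ptf1a and 7823 FPKM in GFP-only cells over the 20 markers with a usable value. The labels do not name the promoter of the construct.

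Radial glia are the neural stem cells of the developing cortex. They line the ventricle, divide to give neurons directly or through intermediate progenitors, guide migrating neurons along their fibre, and later turn into astrocytes. Many of their effector genes, which handle lipids, matrix, ions and metals, stay on in astrocytes and are low in pyramidal neurons. Ptf1a is a basic helix-loop-helix factor that works in a complex with an E-protein and Rbpj, the DNA-binding partner of Notch, and specifies inhibitory neurons in spinal cord, retina and cerebellum.

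Levels are the authors' single value per group in FPKM, read fragments scaled to transcript length and to library size, so they can be compared between genes. No value per sample was analysed here, so neither the spread between samples nor an overlap of the groups can be given. Rose and fell refer to Ptf1a cells relative to GFP-only cells and are used where the q-value in the authors' deposited table was under 0.05. Differences are log2(FPKM + 0.1) with Ptf1a minus that in GFP-only cells, a scale that understates the change of weak genes. In this bulk RNA a larger number of cells of a type and more RNA per cell cannot be told apart. As a check of the groups, Ptf1a stood at 38.9 FPKM in Ptf1a cells and 0.210 FPKM in GFP-only cells, where reads from the construct cannot be separated from those of the gene itself.

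Most of the genes rose together. Of the 31 genes 26 carried a test, and 20 of them rose and 1 fell. Over all 11876 tested genes 18.7% rose and 19.1% fell. The 26 tested genes had a median log2 difference of 0.96, against -0.01 over all tested genes. The rises ran from 0.36 for Sparc to 1.98 for Veph1, and 13 of them reached 2-fold on the log2 scale. Fabp7, Mfge8, Clu, Apoe, Ndrg2, Mt1 and Mt2 were the abundant genes among the clear rises. Arhgap29 was the gene that fell. Hopx, Aldh6a1, Gja1, Cst3 and Fgfbp3 were tested and not called, and Pdgfd, Lrp2, Aqp4, Slc4a4 and S100b were untested, with levels under 0.3 FPKM in both groups.

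The strength of these calls depends on how the authors' statistic is read. The smallest p in the authors' deposited table is 5e-05, which 17 of the 26 genes have, as do 1803 of all 11876 tested genes. Read against a normal distribution and adjusted over all tested genes, the same deposited statistics called 11 of the 26 higher and 0 lower, where 3.31% of all tested genes were called higher and 2.81% lower. The 11 were Fabp7, Acsbg1, Veph1, Ttyh1, Mfge8, Clu, Apoe, Sparcl1, Mt1, Mt2 and Ndrg2.

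**Figure D1:**
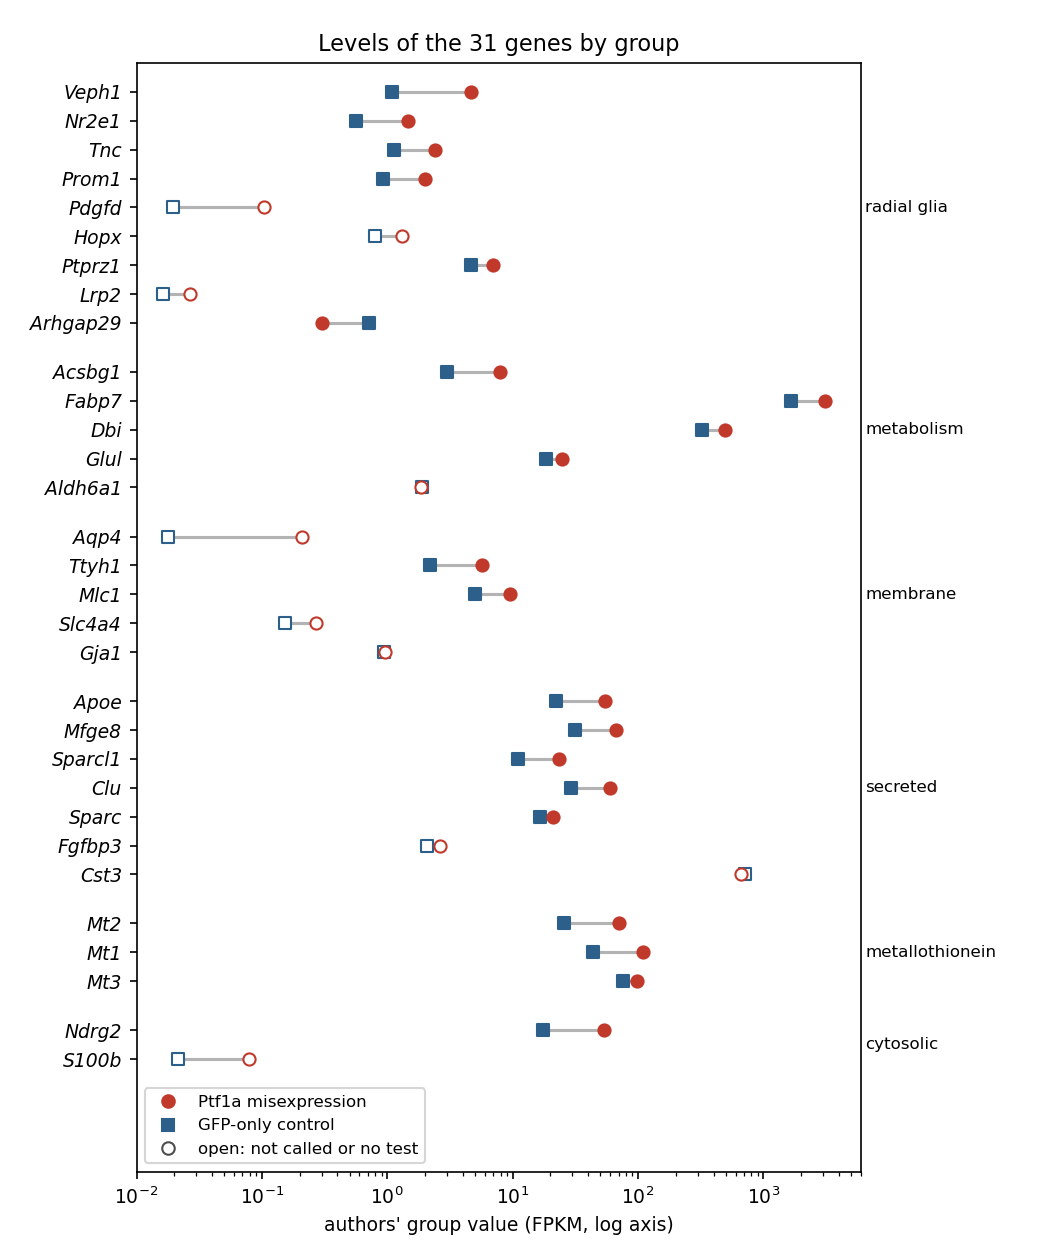
Levels of the 31 genes, grouped by role, on a log axis in FPKM. Each circle is the authors' group value with Ptf1a and each square that in GFP-only cells, filled where the gene was called. Levels run from 0.0162 FPKM (Lrp2, GFP-only) to 3095 FPKM (Fabp7, Ptf1a), and Arhgap29 is the filled pair whose Ptf1a value lies to the left.

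Among genes of the radial glial surface, matrix and regulation, 5 of 7 tested members rose. Veph1, a pleckstrin homology protein named for its expression in the ventricular zone (chromosome 3, 65858748 to 66100741, mm9), stood at 4.64 FPKM in Ptf1a cells and 1.10 FPKM in GFP-only cells. The authors' deposited table gives it q = 0.000329 and a log2 fold of 2.08, the widest among the 20 genes that rose. The locus of Veph1 overlaps that of Ptx3, another row of the table. Nr2e1, the orphan nuclear receptor Tlx that keeps neural stem cells dividing (chromosome 10, 42281777 to 42303394, mm9), stood at 1.46 FPKM with Ptf1a and 0.562 FPKM without. Both are weak genes, with log2 differences of 1.98 and 1.24.

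Prom1, the membrane protein CD133 of apical protrusions, stood at 1.99 FPKM in Ptf1a cells and 0.931 FPKM in GFP-only cells. Tnc, the matrix glycoprotein tenascin-C of stem cell niches, stood at 2.41 FPKM with Ptf1a and 1.13 FPKM without. Ptprz1, a receptor tyrosine phosphatase that binds pleiotrophin, stood at 6.93 FPKM with Ptf1a and 4.62 FPKM in GFP-only cells. All 3 rose, with log2 differences of 1.02, 1.03 and 0.58, but none of them nor Nr2e1 passed under the normal reading of the statistic. For Prom1 the statistic of 2.06 carries p = 5e-05 in the authors' deposited table and a normal p of 0.0399.

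Of the remaining radial glial members 1 fell, 1 was not called and 2 were untested. Arhgap29, a GTPase-activating protein (chromosome 3, 121656244 to 121719071, mm9), fell to 0.303 FPKM with Ptf1a, against 0.716 FPKM in GFP-only cells. Its log2 difference was -1.02, but it lay in the lowest decile of mean level, meaning 10% of tested genes, and was not called by the normal p. Hopx, a homeodomain-only protein that marks outer radial glia in human cortex, stood at 1.30 FPKM with Ptf1a and 0.804 FPKM without and was not called. Pdgfd, a growth factor ligand known from human radial glia, stood at 0.105 FPKM with Ptf1a and 0.0196 FPKM without. The endocytic receptor Lrp2 stood at 0.0266 FPKM with Ptf1a and 0.0162 FPKM without. Beside Pdgfd, the row of Pdgfrb, its receptor and a pericyte gene, rose to 1.20 FPKM with Ptf1a, against 0.0286 FPKM in GFP-only cells. Pdgfrb was also called by the normal p, but lay in the lowest decile of mean level, where 34.2% of tested genes rose. Its deposited log2 fold over its statistic, a rough standard error, was 1.39.

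Of the 5 tested genes of lipid and amino acid metabolism 4 rose, among them Fabp7, the most abundant of the 31 genes in both groups. Fabp7, the brain lipid-binding protein of radial glia (chromosome 10, 57504729 to 57508256, mm9), stood at 3095 FPKM with Ptf1a and 1652 FPKM in GFP-only cells. The log2 difference was 0.91, and the GFP-only value already lay above that of 99.2% of tested genes. Dbi, the acyl-CoA-binding protein also known as diazepam binding inhibitor, stood at 498 FPKM with Ptf1a and 322 FPKM without. Both rose in the highest decile of mean level, where 3.45% of genes rose and 58.8% fell. Acsbg1, an acyl-CoA synthetase for very long chains, rose to 7.97 FPKM with Ptf1a, against 2.97 FPKM in GFP-only cells.

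Glul, the glutamine synthetase of astroglia, stood at 24.7 FPKM with Ptf1a and 18.4 FPKM without, a small rise of 0.43 on the log2 scale. Of 50-base stretches of its longest transcript 14.2% also occur in other annotated genes, mostly the pseudogene Glns-ps1, so its reads may have been split. Aldh6a1, a mitochondrial dehydrogenase of valine breakdown, was not called, at 1.86 FPKM with Ptf1a and 1.88 FPKM without. Its locus overlaps those of 2 other rows of the table. Its deposited log2 fold over its statistic, a rough standard error, was 1.25, the largest among the tested members. Among the other genes of valine and isoleucine breakdown, 3 of 19 rose and 1 fell. The phosphatase Ppm1k rose to 1.15 FPKM with Ptf1a, against 0.643 FPKM in GFP-only cells. Bckdhb, a subunit of the branched-chain keto acid dehydrogenase, rose to 17.3 FPKM, against 11.6 FPKM in GFP-only cells, and Pcca, a subunit of propionyl-CoA carboxylase, to 4.07 FPKM, against 2.72 FPKM in GFP-only cells. Bcat1, a transaminase that opens the pathway, fell to 9.0 FPKM, against 11.1 FPKM in GFP-only cells. Hsd17b10 (213 FPKM with Ptf1a, 246 FPKM without) and Echs1 (143 FPKM with Ptf1a, 139 FPKM without) were not called. These counts lie near the background shares of 18.7% and 19.1%, or under them.

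**Figure D2:**
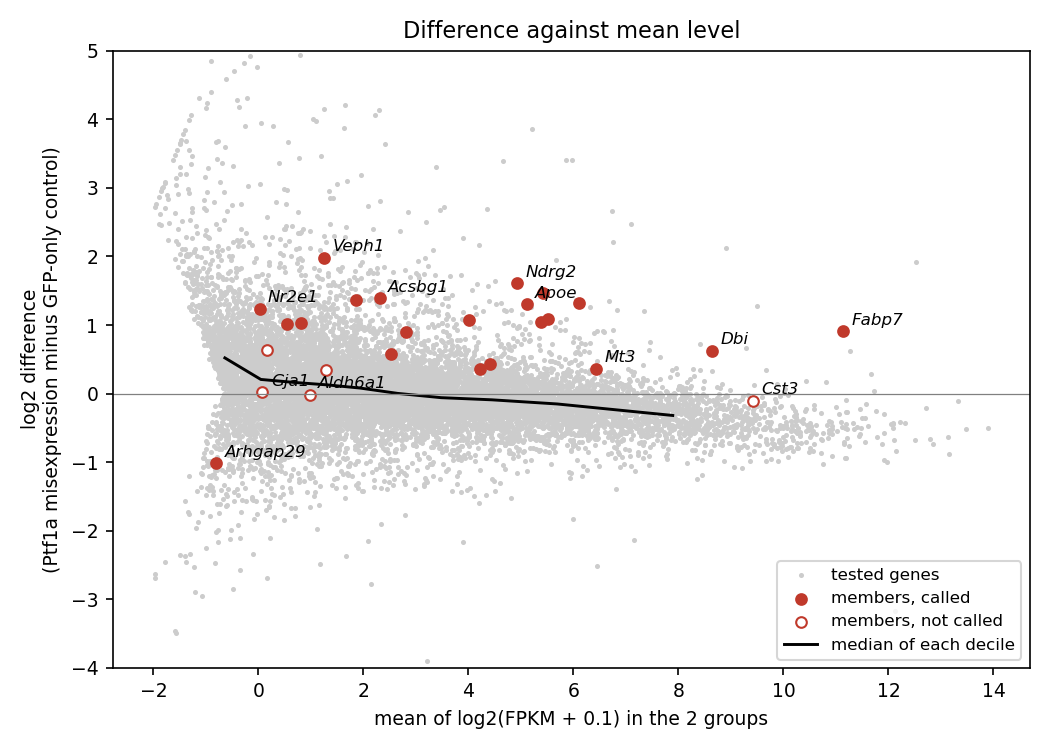
Log2 difference (Ptf1a misexpression minus GFP-only control) against the mean of log2(FPKM + 0.1) in both groups. Grey points are tested genes, red points the 26 tested members (open where not called), and the black line joins the medians of 10 equal bins of mean level; 47 tested genes lie outside the vertical axis. The line falls to -0.32 at the right, while Fabp7 and Dbi stay above 0.

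Differences over all genes varied with mean level. Among the weakest 10% of tested genes the median difference was 0.52, and among the most abundant 10% it was -0.32. In the 3 highest deciles of mean level 12 of 13 members rose, against 8.20% of the 3563 tested genes there, of which 38.2% fell. Measured from the median of its own decile, the median member difference was 0.92. On that scale Cst3 and Gja1 changed sign, to 0.22 and -0.18, and neither was called.

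Of the 5 astroglial membrane genes 3 were tested and 2 rose. Ttyh1, a tweety family channel protein of radial glia, stood at 5.74 FPKM with Ptf1a and 2.17 FPKM in GFP-only cells, and its locus overlaps that of 2 unnamed transcripts. Mlc1, a membrane protein of astrocyte junctions, stood at 9.47 FPKM with Ptf1a and 5.05 FPKM without. Both rose, with log2 differences of 1.36 and 0.90. Gja1, the gap junction protein connexin 43, was not called, at 0.963 FPKM with Ptf1a and 0.947 FPKM without. The water channel Aqp4 (0.210 FPKM with Ptf1a, 0.0177 FPKM without) and the bicarbonate transporter Slc4a4 (0.272 FPKM with Ptf1a, 0.153 FPKM without) had no test.

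Of the secreted members 5 of 7 rose. Apoe, the lipid carrier of astrocytes and microglia (chromosome 7, 20281593 to 20284515, mm9), stood at 54.4 FPKM with Ptf1a and 22.0 FPKM in GFP-only cells, a log2 difference of 1.30. Mfge8, a secreted bridge between phosphatidylserine and integrins, stood at 67.0 FPKM with Ptf1a and 31.5 FPKM without. Clu, the extracellular chaperone clusterin, stood at 60.3 FPKM with Ptf1a and 29.1 FPKM without. The log2 differences of these 3 genes were 1.30, 1.09 and 1.05.

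Sparcl1, the synapse-promoting matrix protein hevin, stood at 23.3 FPKM with Ptf1a and 11 FPKM without. Its relative Sparc, an antagonist of hevin at synapses, stood at 21.0 FPKM with Ptf1a and 16.4 FPKM without, and its rise of 0.36 was lost at a q under 0.01. Cst3, the protease inhibitor cystatin C, was the most abundant secreted member and was not called, at 659 FPKM with Ptf1a and 708 FPKM without. Fgfbp3, a carrier of fibroblast growth factors, was not called either, at 2.65 FPKM with Ptf1a and 2.06 FPKM without.

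Receptors and partners of these proteins were called in both directions. Of 19 listed partners 9 were tested, and 4 rose and 1 fell. These are 44.4% and 11.1% of the tested partners, against 18.7% and 19.1% of all tested genes. By the normal p of the deposited statistic 2 were called higher and 0 lower. Itgb5, an integrin chain that binds Mfge8, rose to 2.90 FPKM with Ptf1a, against 0.567 FPKM in GFP-only cells. Lrpap1, a chaperone of endocytic receptors, fell to 115 FPKM, against 139 FPKM in GFP-only cells. Mdk, a ligand of Ptprz1, stood at 385 FPKM with Ptf1a and 338 FPKM without. The receptor Vldlr stood at 2.96 FPKM with Ptf1a and 3.53 FPKM without, and neither was called.

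The 3 metallothioneins among the members, small cysteine-rich proteins that bind zinc and copper, lie side by side within 27.7 kb of chromosome 8 and all rose. Mt1 (96702989 to 96704227, mm9) stood at 109 FPKM with Ptf1a and 43.7 FPKM in GFP-only cells. Mt2 (96696518 to 96697467) stood at 70.7 FPKM with Ptf1a and 25.6 FPKM without. Mt3 (96676507 to 96678048), the form of brain, stood at 98.1 FPKM with Ptf1a and 76.2 FPKM without. The log2 differences were 1.32, 1.46 and 0.37, and the call on Mt3 was lost at a q under 0.01. The difference between Mt3 and the others was not tested. None of the 3 transcripts shares a 50-base stretch with another annotated gene. Mt4, a gene of the same family outside the members, was listed at 0 FPKM in both groups and had no test. Mtf1, the metal-responsive factor that drives Mt1 and Mt2, was chosen after its values were seen and was not called, at 1.89 FPKM with Ptf1a and 1.75 FPKM without.

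The metallothionein promoters are shown because these 3 neighbouring genes of 1 family all rose. Each sequence is the 250 bases before the gene start in RefSeq (GRCm38.p6), 5′ to 3′ on the strand of the gene, with matches on either strand to the metal response cores TGCACNC and TGCGCNC in capitals.
Mt1 promoter, chr8:94178839-94179088, plus strand: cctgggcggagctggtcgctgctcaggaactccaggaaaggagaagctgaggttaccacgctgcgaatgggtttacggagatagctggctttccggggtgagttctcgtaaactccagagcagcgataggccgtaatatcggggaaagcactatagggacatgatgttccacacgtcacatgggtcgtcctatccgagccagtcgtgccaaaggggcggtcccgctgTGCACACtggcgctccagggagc
Mt2 promoter, chr8:94172368-94172617, plus strand: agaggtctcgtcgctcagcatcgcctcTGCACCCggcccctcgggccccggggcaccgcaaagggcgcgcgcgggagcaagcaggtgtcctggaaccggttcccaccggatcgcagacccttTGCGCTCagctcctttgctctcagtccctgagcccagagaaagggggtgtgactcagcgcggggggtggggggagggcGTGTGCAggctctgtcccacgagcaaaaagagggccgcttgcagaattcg
Mt3 promoter, chr8:94152357-94152606, plus strand: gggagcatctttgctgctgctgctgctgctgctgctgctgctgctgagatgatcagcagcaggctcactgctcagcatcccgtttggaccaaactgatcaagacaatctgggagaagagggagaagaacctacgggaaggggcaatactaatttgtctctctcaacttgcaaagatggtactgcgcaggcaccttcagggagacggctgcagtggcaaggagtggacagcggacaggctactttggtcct
The window of Mt2 held 3 matches, that of Mt1 held 1 and that of Mt3 held 0. In windows reaching 50 bases past the start, chosen after seeing the data, the counts were 4, 3 and 1, so no order of the 3 genes is read from them. GENCODE M21 starts no transcript of Mt2 at the RefSeq start, the nearest lying 46 bases downstream, and places further starts of Mt1 122 and 152 bases downstream. Of 27025 promoters of the same length 21.3% held at least 1 of these cores, as did 9 of the 28 member promoters in the table. In 19 of these 28 the bases just after the start lie in a GENCODE transcript of the gene, and 5 of those 19 held a core.

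The core TGGGAA is bound by Rbpj, both at Notch targets and in the TC-box that pairs with an E-box in sites of the Ptf1a complex. It lay in 13 of 28 member promoters (46.4%) and in 21.5% of all 27025. Of the 19 whose bases just after the start lie in a transcript, 8 held it, but such a match does not show that a transcript starts there. Members that rose held it in 8 of 18 promoters and the other members in 5 of 10. The E-box CAGCTG lay in 3 of 28 and in 12.8% of all. A match describes letters in this window and is no evidence of binding. The next 3 promoters are examples from the 8 of risen members that hold TGGGAA, in capitals and on the reverse strand in each. Not shown are those of the risen radial glial members Prom1, which held 1 match, and Veph1 and Ptprz1, which held 0.
Fabp7 promoter, chr10:57784673-57784922, plus strand: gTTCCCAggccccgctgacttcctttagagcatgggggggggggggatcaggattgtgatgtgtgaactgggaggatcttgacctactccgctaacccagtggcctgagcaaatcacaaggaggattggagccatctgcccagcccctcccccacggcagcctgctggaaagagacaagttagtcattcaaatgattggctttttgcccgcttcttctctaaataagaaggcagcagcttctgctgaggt
Nr2e1 promoter, chr10:42583591-42583840, minus strand: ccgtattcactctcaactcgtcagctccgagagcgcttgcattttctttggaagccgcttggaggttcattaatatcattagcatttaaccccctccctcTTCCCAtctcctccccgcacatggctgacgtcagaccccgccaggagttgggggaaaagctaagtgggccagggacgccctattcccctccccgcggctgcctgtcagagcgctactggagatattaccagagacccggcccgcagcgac
Tnc promoter, chr4:64047016-64047265, minus strand: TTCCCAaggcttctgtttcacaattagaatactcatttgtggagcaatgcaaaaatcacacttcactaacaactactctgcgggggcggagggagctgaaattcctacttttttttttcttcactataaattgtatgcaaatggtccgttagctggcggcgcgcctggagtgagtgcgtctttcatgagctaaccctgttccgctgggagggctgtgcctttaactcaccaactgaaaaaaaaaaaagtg
In Fabp7 the match starts 249 bases, in Nr2e1 150 bases and in Tnc 250 bases before the gene start. None of the 3 windows holds CAGCTG, and other forms of the E-box were not searched.

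Of the cytosolic members, Ndrg2, a hydrolase-fold protein of astrocytes (chromosome 14, 52524946 to 52533163, mm9), stood at 53.3 FPKM with Ptf1a and 17.3 FPKM in GFP-only cells. In the authors' deposited table its q was also 0.000329, and its log2 fold of 1.62 was next to that of Veph1 among the genes that rose. S100b, a calcium-binding protein of mature astrocytes, was untested, at 0.0787 FPKM with Ptf1a and 0.0216 FPKM without.

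The closest relatives of the members by gene family were called in both directions. Of 42 tested relatives 10 rose and 11 fell, 23.8% and 26.2%, near the background shares, and their median log2 difference was 0.15, or 0.08 from the median of each gene's own decile. Smoc1, a relative of Sparc, rose to 3.89 FPKM with Ptf1a, against 0.677 FPKM in GFP-only cells. Tnr, a tenascin like Tnc, rose to 0.821 FPKM, against 0.224 FPKM in GFP-only cells, and the connexin Gjd2 to 1.35 FPKM, against 0.452 FPKM in GFP-only cells. Both are weak genes, and neither Tnr nor Gjd2 was called by the normal p. Fabp3 fell to 69.1 FPKM with Ptf1a, against 181 FPKM in GFP-only cells. Aldh2 (28.4 FPKM with Ptf1a, 33.7 FPKM without) and S100a16 (14.5 FPKM with Ptf1a, 11 FPKM without) were not called.

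The following relatives, beside Fabp3, were chosen after their values were seen. Fabp5 fell to 703 FPKM with Ptf1a, against 1176 FPKM in GFP-only cells, so Fabp7 made up 80.0% of the summed FPKM of these 3 genes with Ptf1a and 54.9% in GFP-only cells. Fabp5 lies in the highest decile of mean level, where 58.8% of tested genes fell. Ndrg1, Ndrg3 and Ndrg4 all fell, to 15.1, 60.4 and 19.7 FPKM with Ptf1a, against 24.3, 74.6 and 30.7 FPKM in GFP-only cells. In the decile of Ndrg1 and Ndrg4 23.7% of tested genes fell, and in that of Ndrg3 32.2%. From the medians of their own deciles the 3 differences were -0.59, -0.15 and -0.55. The normal p of the deposited statistic called Fabp3 and Fabp5 lower, but none of these 3 Ndrg genes. The 4 Ndrg genes together stood at 149 FPKM with Ptf1a and 147 FPKM in GFP-only cells, and Ndrg2 was 35.9% of that sum with Ptf1a and 11.8% without. Ttyh2 and Ttyh3 rose beside Ttyh1, by 0.76 and 0.34 on the log2 scale. Unlike Ttyh1, neither was called by the normal p, and the call on Ttyh3 was lost at a q under 0.01. No test was made of the shares of Fabp7 and Ndrg2.

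**Figure D3:**
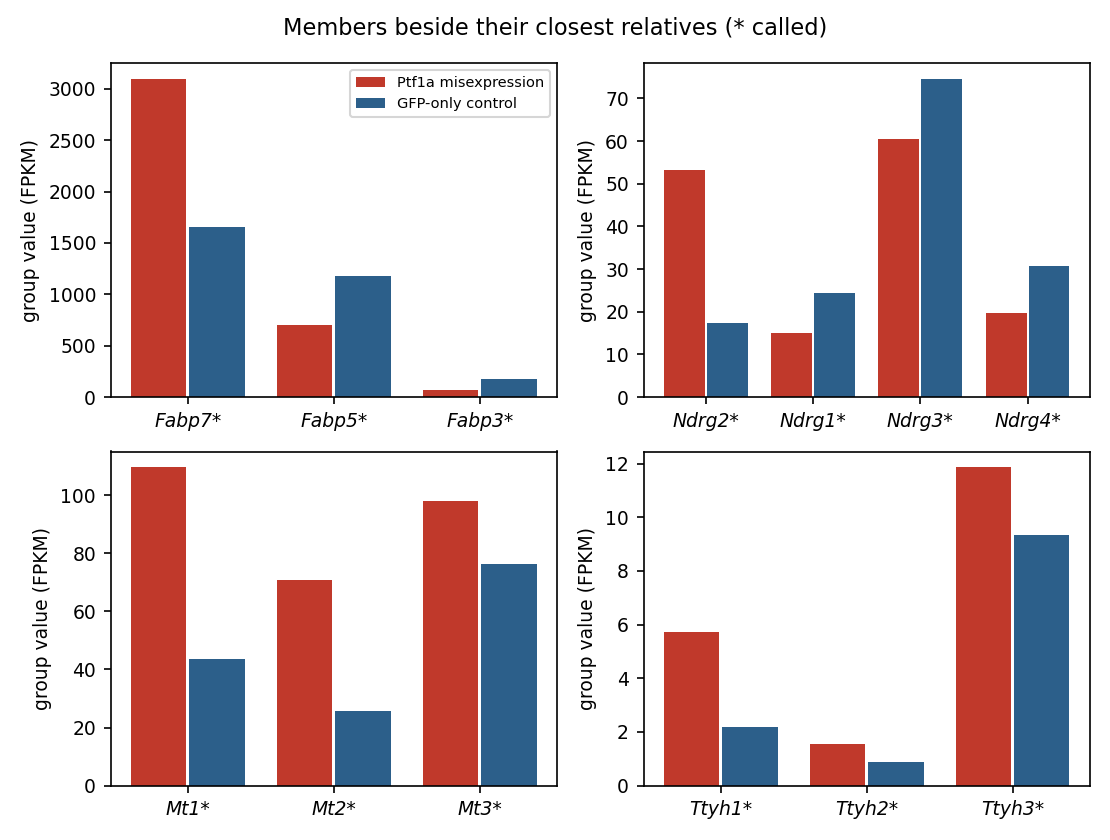
Group values in FPKM of 4 gene families, with Ptf1a in red and GFP-only in blue and an asterisk where the gene was called. Fabp7 and Ndrg2 are higher with Ptf1a while the relatives shown are lower, and in the Mt and Ttyh families every gene shown is higher. Mt4, at 0 in both groups, is not shown.

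Other genes of the same cell types, outside the 31, were read from 2 further lists. Of 31 other radial glia genes, all tested, 28 rose and 0 fell at q under 0.05 in the authors' deposited table (1 fell at an unadjusted p under 0.05, 0 by the normal p). The normal p left 19 of the 28 rises. Over all tested genes 18.7% rose by the deposited q and 3.31% by the normal p. The median log2 difference of these 31 genes was 1.21, against 0.96 for the 26 members. The proteoglycan Bcan rose to 8.01 FPKM with Ptf1a, against 0.870 FPKM in GFP-only cells, the factor Pax6 to 21.5 FPKM, against 3.73 FPKM in GFP-only cells, and the stem cell factor Sox3 and the patterning factor Emx2 to 1.25 and 3.13 FPKM, against 0.143 and 0.511 FPKM in GFP-only cells. Sox3 lay in the lowest decile of mean level and was not called by the normal p. The adhesion protein Cdh2 (17.2 FPKM with Ptf1a, 20.5 FPKM without) and the secreted Wnt inhibitor Sfrp1 (6.96 FPKM with Ptf1a, 5.70 FPKM without) were not called.

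Of 31 other astrocyte genes 18 were tested, and 13 rose and 0 fell by the deposited q (1 fell at an unadjusted p under 0.05, 0 by the normal p). The normal p left 9 of the 13 rises, and the shares of all tested genes are those given above. The mitochondrial carrier Slc25a18 rose to 3.25 FPKM with Ptf1a, against 0.381 FPKM in GFP-only cells, and Cbs, which condenses serine with homocysteine, to 8.89 FPKM, against 1.87 FPKM in GFP-only cells. The secreted protease Htra1 rose to 0.711 FPKM with Ptf1a, against 0.143 FPKM in GFP-only cells, and the phospholipase Pla2g7 to 15.0 FPKM, against 4.43 FPKM in GFP-only cells. Htra1 lay in the lowest decile of mean level, where 34.2% of tested genes rose, and was not called by the normal p. Acsl6 (7.62 FPKM with Ptf1a, 6.53 FPKM without) and Atp1b2 (5.06 FPKM with Ptf1a, 3.86 FPKM without) were not called. In 16 of these 31 genes both groups stood under 1 FPKM. Gfap, the filament protein of mature astrocytes, was chosen after its value was seen; it stood at 0.182 FPKM with Ptf1a, was listed at 0 in GFP-only cells and had no test.

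**Figure D4:**
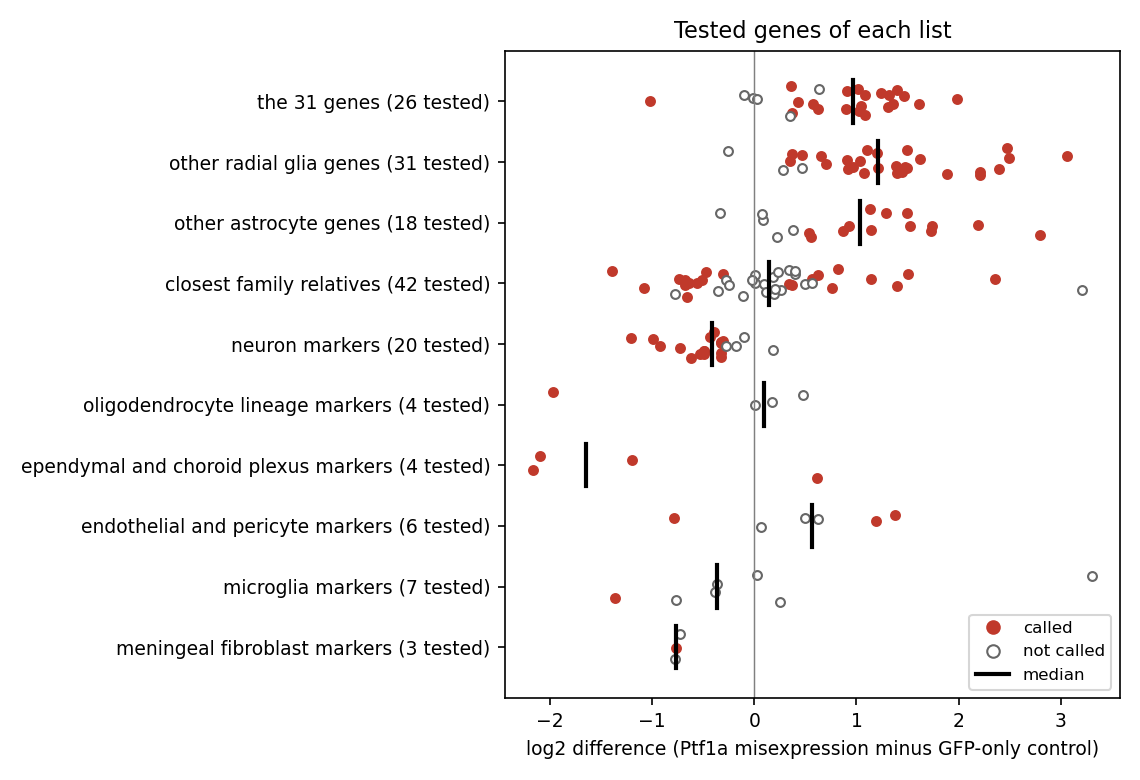
Log2 differences (Ptf1a misexpression minus GFP-only control) of the tested genes of each list, 1 point per gene, filled where called, with the median as a bar. The members, other radial glia genes and other astrocyte genes lie mostly right of 0, with medians of 0.96, 1.21 and 1.03, and neuron markers mostly left, with a median of -0.42.

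Markers of other cell types moved with the groups in several ways. Of 20 tested neuron markers 16 fell and 0 rose in the authors' deposited table (0 at an unadjusted p under 0.05 and 0 by the normal p, which left 3 of the falls). Of these markers 18 lie in the 3 highest deciles of mean level, where 38.2% of tested genes fell. Their median log2 difference of -0.42 was -0.25 when measured from the median of each gene's own decile. Nefl, Gap43, Stmn2 and Nefm fell to 47.3, 465, 794 and 15.2 FPKM with Ptf1a, against 109, 923, 1504 and 25.2 FPKM in GFP-only cells, while Snap25 and Elavl4 were not called. Several members, such as Apoe, Cst3, Sparc and Mfge8, are also made by microglia or vessel cells. Microglia markers summed to 14.3 FPKM with Ptf1a and 18.1 FPKM in GFP-only cells over 12 genes, none of them at 0, with Tyrobp fallen to 1.85 FPKM, against 4.90 FPKM in GFP-only cells, and C1qa and C1qb not called. Log2 differences of the 7 tested microglia markers ran from -1.36 to 3.30, the latter not called. Of all 12, 5 had a difference above 0. Endothelial and pericyte markers summed to 12.6 FPKM with Ptf1a and 9.07 FPKM without over 14 genes, with 1 of them, Slco1a4, at 0 in GFP-only cells. Esam and Rgs5 rose, to 1.95 and 1.55 FPKM, against 0.689 and 0.623 FPKM in GFP-only cells, Kcnj8 fell, and Cldn5 and Vtn were not called.

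Oligodendrocyte lineage markers summed to 8.13 FPKM with Ptf1a and 10.6 FPKM without over 13 genes. Gpr17 was at 0 in GFP-only cells, Lhfpl3 fell to 0.994 FPKM, against 4.19 FPKM in GFP-only cells, and Cnp and Mag were not called. Ependymal and choroid plexus markers summed to 13.5 FPKM with Ptf1a and 38.6 FPKM without over 12 genes, mostly through Ttr, which fell to 6.92 FPKM with Ptf1a, against 31.4 FPKM in GFP-only cells. Folr1 and Tmem212 were at 0 in GFP-only cells, Dynlrb2 and Rsph1 fell, and Sostdc1 rose. Meningeal fibroblast markers summed to 3.03 FPKM with Ptf1a and 5.03 FPKM without over 10 genes, with Twist1 at 0 in both groups, Foxc1 and Foxc2 at 0 in GFP-only cells, Dcn fallen and Lum and Slc6a13 not called. The part of these cell types in the results on the members was not tested.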

How the data were processed

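RNA of 5 samples of sorted cells was amplified from 2.1 to 7.8 ng, per the labels' protocols. The submitters' processing notes name the build mm9 and the tools Cuffdiff, Cufflinks 2.1.1, TopHat2 2.0.8 and CASAVA 1.8.2. The Cuffdiff version, annotation and strand setting are not given in the sources used here. The authors deposited 1 FPKM value per group and gene, a log2 fold of the Ptf1a value over the control value, a test statistic (a signed score) and a p-value and q-value, per the file headers. PIG in those headers was taken for Ptf1a misexpression, since the other was headed GFP. Low input adds error to weak genes, and the depth of each sample is unknown.

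The deposited q under 0.05, adjusted over 11876 tested rows, served as the test. Recomputing the Benjamini-Hochberg adjustment gave the deposited q within 5.2e-07. The ratio of deposited log2 fold to statistic, a rough standard error, was 0.17 to 1.25 among the members, with a median of 0.28. How the deposited p-values weigh the spread between the authors' samples is not given in the sources used here. The labels do not say whether the samples came from separate litters. Locus starts are 0-based in the table and are given 1-based here: 4968 of 20792 locus spans then equal that of a transcript in GENCODE M21, against 629 otherwise. The members and lists were chosen with earlier results of these data known, so no list was tested. Named are all members, and from each other list the 4 called genes with the largest difference and the 2 uncalled genes with the highest mean FPKM. A gene that the rule names is not reported here. Of the listed genes 1 (Map2) was matched through a synonym. Promoters come from RefSeq, matched by symbol for 28 members. In each, the bases just after the start were looked for in GENCODE M21 transcripts of the gene, which does not check the start itself. The computations used Python 3.11.15, pandas 2.3.3, NumPy 2.4.6 and SciPy 1.17.1, and were repeated under 9 alternatives. The code for differences, adjustment and deciles was tested on simulated data with a fixed error, which does not test the deposited calls.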

Additional observations from a re-analysis of the deposited data

How the results depend on the processing

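Of the 9 alternatives only centring could change the direction of a member, since the others keep its difference or the sign of it. Centred on the decile of mean level, Cst3 went to 0.22 and Gja1 to -0.18, and neither was called. The other centring, on the median of all tested genes (-0.01), shifted too little to change the direction of any tested member. With the normal p of the deposited statistic, 11 members were called higher and 0 lower. Among rows of at least 1 or at least 5 FPKM in either group 0 members were lower, since Arhgap29 lies under both minimums. The members' median was 0.67 with a pseudocount of 1. Other astrocyte genes had 8 risen among rows of at least 5 FPKM. Closest relatives had 1 risen and 2 fallen by the normal p, 3 risen among rows of at least 5 FPKM and 7 fallen with a fold of at least 1.5. Neuron markers had 3 fallen by the normal p, and 5 with that fold. Centred on the decile, 1 of those that fell, Nsg1, had a difference just above 0 (0.01), a change of sign made by the centring and not a tested rise. Beyond the rows removed by each minimum, the cause was not tested. A q under 0.01 lost Sparc and Mt3, and the fold minimum, taken with 0.1 FPKM added, lost Ptprz1, Glul, Sparc and Mt3; the deposited log2 fold of Ptprz1, 0.586, passes it. No paired analysis was possible because the table holds 1 value per group, and leaving out replicates was not run for the same reason. Counts that rest on weak genes are the least certain, since no depth is known.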
